A study of Homo sapiens with 6 samples.

Results

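The miRNA entries hsa-miR-203a, hsa-miR-203b-3p and hsa-miR-205-5p, known from skin and squamous epithelium, were followed in exosomes of a colon cancer line. They are 3 of the 2575 mature miRNA entries in the deposited count tables. The 3 entries were chosen by name and on their measured levels, with their difference between the 2 groups of libraries already known, so levels and differences are given as descriptions of these libraries. All 3 had enough counts to enter the test across entries.

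Exosomes, the small vesicles that cells release, were collected from medium of HCT116, an established human colorectal cancer cell line, at passage 16 to 19. In 3 libraries the titles say untreated, and the treatment text gives the control cells the bacterial medium without bacteria. In the other 3 the titles say 6 hours with ETBF, short for enterotoxigenic Bacteroides fragilis, a gut anaerobe that secretes a toxin, added at a multiplicity of infection of 500. The series' title places the comparison in intestinal inflammation and colorectal carcinogenesis. The names of the deposited files give the opposite group to the titles in all 6 libraries. The titles set the groups here. Should the file names be the correct ones, each higher becomes lower and the reverse, with sizes and errors as they stand. Nothing in the labels says that replicates are separate cultures. The p-values therefore reflect library-to-library spread alone, and that spread may be technical. In such bulk RNA, fewer vesicles carrying a miRNA and less of it in each vesicle cannot be told apart.

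miRNAs are short RNAs cut from hairpin precursors, and they pair with messenger RNAs mainly through the seed, bases 2 to 8. miR-203 rises as keratinocytes leave the basal layer of the epidermis and represses p63, a factor that keeps basal cells dividing. miR-205 is high in basal cells of stratified epithelia and, with the miR-200 family, represses the mesenchymal factors ZEB1 and ZEB2. miR-203b is read from the strand opposite to miR-203a, at the same place.

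The mature sequences are shown with the seed in capitals, 5′ to 3′, because the antisense pair differs in its seed and because an arm of the pair is missing from the count tables. They come from RefSeq, build GRCh38.p14.
hsa-miR-203a-3p: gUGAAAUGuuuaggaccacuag
hsa-miR-203b-3p: uUGAACUGuuaagaaccacugga
hsa-miR-203a-5p: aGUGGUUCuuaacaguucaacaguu
hsa-miR-203b-5p: uAGUGGUCcuaaacauuucaca
hsa-miR-205-5p: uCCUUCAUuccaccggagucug

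The tables name miR-203a without an arm. The entry is taken here as the 3p arm, the arm that older miRNA catalogues listed under that name, and this cannot be checked in the tables. Aligned without gaps, miR-203a-3p and miR-203b-3p were identical at 17 of 22 bases. The 5 differences, with the miR-203a-3p base first and positions counted from its 5′ end, were G1U, A6C, U11A, G14A and A21G. One of them, A6C, lies in the seed, so the 2 miRNAs hold different seeds. miR-205-5p shares no seed with either. No other mature miRNA in the RefSeq table had the seed of miR-203a-3p, miR-203b-3p or miR-205-5p, and each of the 3 has 1 locus in that table.

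The hairpins show how the antisense pair is laid out, with the mature arms in capitals.
MIR203A: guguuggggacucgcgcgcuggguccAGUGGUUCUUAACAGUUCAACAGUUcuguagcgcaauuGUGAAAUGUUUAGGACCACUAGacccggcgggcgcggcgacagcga
MIR203B: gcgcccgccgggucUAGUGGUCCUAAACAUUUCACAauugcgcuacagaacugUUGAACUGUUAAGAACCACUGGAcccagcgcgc

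In GRCh38.p14, MIR203A lies on the plus strand of chromosome 14 from 104117405 to 104117514, and MIR203B on the minus strand from 104117418 to 104117503. The submitters counted on GRCh37.p5, so these positions are not those of the counting. The whole MIR203B hairpin is the reverse complement of bases 14 to 99 of MIR203A. In GENCODE release 29 the pair lies between protein-coding genes, 1824 bases beyond the end of ASPG and 21209 bases before KIF26A, and in no exon or intron of another gene. MIR205 lies on the plus strand of chromosome 1 from 209432133 to 209432242, inside its host transcript gene MIR205HG, where it overlaps an exon in 7 of 10 transcripts.

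Because the hairpins face each other, each arm of one lies over an arm of the other. miR-203b-3p is complementary to miR-203a-5p over 20 bases, and miR-203b-5p to miR-203a-3p over 21. The count tables hold entries for miR-203a, miR-203b-3p and miR-203b-5p but none named miR-203a-5p. Whether the submitters' counting used strand is not given in the sources used here. Without strand, a read of miR-203a-5p and a read of miR-203b-3p could not be told apart, and the miR-203b-3p entry could hold both.

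Counts on the arm opposite miR-203a bear on strand. The miR-203a entry held 20494 counts over the 6 libraries and miR-203b-5p, across from its 3p arm, held 1. In the RefSeq table, 15 pairs of counted entries overlap on opposite strands and had at least 10 counts on one side, miR-203a with miR-203b-5p among them. The opposite entry was at 0 in 11 of the 15 and above 0 in 4. The largest share was in a sparsely counted pair, miR-3065-5p with 20 counts against 13 for miR-338-3p. Of the 6 pairs with at least 1000 counts, the opposite entry held 2 counts at most. miR-122-5p held 9362 counts against 0 for miR-3591-3p, and miR-103a-3p held 7764 against 0 for miR-103b. No entry exists across from miR-203b-3p, so the same comparison could not be made for it.

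**Figure D1:**
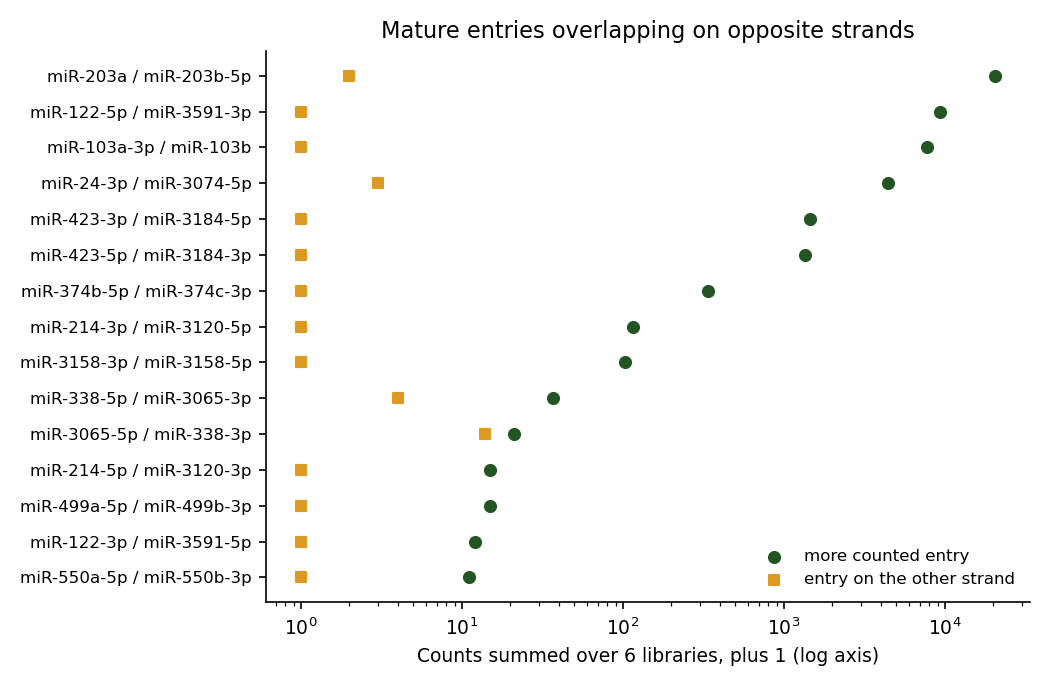
Counts summed over the 6 libraries, plus 1, on a log axis, for the 15 pairs of mature miRNA entries that overlap on opposite strands and have at least 10 counts on one side. Circles are the more counted entry and squares the entry on the other strand; miR-203a stands at 20494 counts and miR-203b-5p at 1.

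Libraries were shallow, with 200207 to 417321 counts in all. A count of 3, taken as the floor, equals 8.29 to 14.6 CPM (counts scaled to a common library size), and intervals and floors cover counting error only. CPM values are scaled between libraries by TMM, which sets the scale from the bulk of entries, with factors from 0.776 to 1.19 (titled ETBF replicates 3 and 1).

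miR-203a was among the abundant miRNAs of these exosomes. Its counts were 2981, 4515 and 3937 in titled untreated replicates 1 to 3 and 3372, 2118 and 3571 in titled ETBF replicates 1 to 3. It ranked 11 to 13 among all entries of a library. As a share of a library's counts it was 1.49%, 1.22% and 1.34%, against 1.35%, 0.954% and 0.856% with ETBF in the title. Wilson 95% intervals were narrow at this level, for example 1.44% to 1.54% for the first. The shares of the groups overlapped, since titled ETBF replicate 1 lay above titled untreated replicates 2 and 3.

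In mean CPM over the 6 libraries, miR-203a came 14th, at 11925 ± 1679 CPM (SD, n = 6). The next entry above was let-7a-5p, a growth-restraining miRNA, at 15960 ± 1685 CPM. Just below came miR-192-5p, a marker of gut epithelium, at 9577 ± 1212 CPM. miR-203a was under let-7a-5p and over miR-192-5p in 6 of 6 libraries, although the SDs of miR-203a and miR-192-5p overlap.

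miR-205-5p was lower but well counted. Titled untreated replicates 1 to 3 gave 701, 1078 and 929 counts, and titled ETBF replicates 1 to 3 gave 812, 484 and 779. Its rank was 31 to 40. The shares were 0.350%, 0.292% and 0.317% against 0.324%, 0.218% and 0.187%, and titled ETBF replicate 1 again lay among the titled untreated libraries. Its mean level was 2782 ± 439.8 CPM (SD, n = 6), the 36th. Its neighbours, miR-199b-3p at 2892 ± 275.2 CPM and miR-148b-3p at 2706 ± 747.6 CPM, did not differ from it beyond their spread, and miR-205-5p was the higher in 2 and 3 of 6 libraries. The other arm, miR-205-3p, had 0 counts in each library, which allows at most 0.000719% to 0.00150% of counts.

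miR-203b-3p was rare. Titled untreated replicates 1 to 3 gave 4, 13 and 8 counts and titled ETBF replicates 1 to 3 gave 30, 11 and 27. That is 93 in all, at ranks 133 to 218. Its shares were 0.00200%, 0.00352% and 0.00273% against 0.0120%, 0.00496% and 0.00647%. The lowest titled ETBF library, replicate 2, stood above the highest titled untreated library, replicate 2, but their Wilson 95% intervals overlapped, at 0.00277% to 0.00887% and 0.00206% to 0.00603%. In the order of levels it came 170th, at 52.5 ± 32.9 CPM (SD, n = 6), and did not differ beyond its spread from miR-374a-3p at 52.8 ± 19.7 CPM or miR-223-3p, a myeloid miRNA, at 51.4 ± 13.4 CPM. miR-203b-5p had 1 count, in titled ETBF replicate 3.

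**Figure D2:**
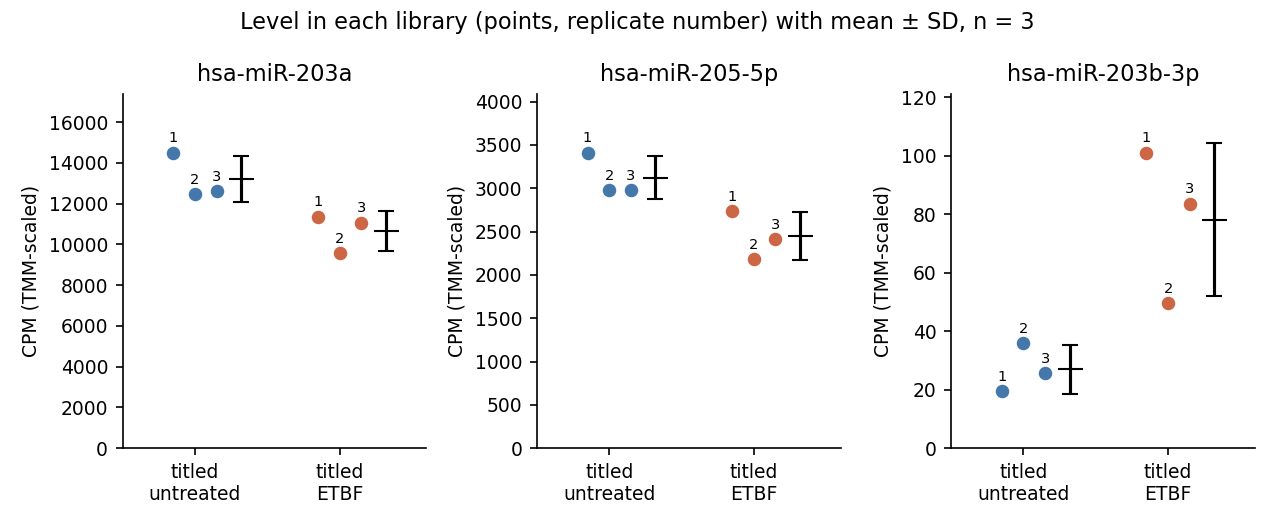
TMM-scaled CPM of the 3 entries in each library, with points numbered by replicate and the mean ± SD of 3 libraries beside them; each vertical axis starts at 0. On this scale the titled ETBF libraries lie below the titled untreated libraries for miR-203a and miR-205-5p and above them for miR-203b-3p.

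After TMM scaling the groups did not overlap for any of the 3 entries, as was so for 39.0% of the 195 tested entries. From titled untreated to titled ETBF libraries, the mean of miR-203a went from 13194 ± 1135 to 10657 ± 965.9 CPM (SD, n = 3) and that of miR-205-5p from 3121 ± 250.6 to 2444 ± 276.9 CPM (SD, n = 3). miR-203b-3p went from 27.0 ± 8.31 to 78.1 ± 26.1 CPM (SD, n = 3). Folds fitted by edgeR were 1.24 and 1.27 times lower for the first 2 and 2.81 times higher for miR-203b-3p.

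In edgeR's quasi-likelihood fit over the 195 tested entries, two-sided with Benjamini-Hochberg adjustment, 28 entries or 14.4% passed an adjusted p of 0.05, and 21 or 10.8% did so as higher in the titled ETBF libraries. Of the 3 entries here 1 passed, miR-203b-3p, as higher. Nothing is read from that count, since the entries were chosen with this contrast known. The log2 fold change of miR-203b-3p was 1.49 with a standard error (SE) of 0.34 (adjusted p = 0.0213). For miR-203a it was -0.31 (SE 0.11, adjusted p = 0.0838) and for miR-205-5p -0.35 (SE 0.11, adjusted p = 0.0601). The median over all tested entries was -0.03.

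miR-203b-3p entered the test only through the titled ETBF libraries. The filter asks for 36.8 CPM, before TMM scaling, in 3 libraries. The titled untreated libraries had 20.0 to 35.2 CPM and the titled ETBF libraries 49.6 to 119.8 CPM, so the entry had to differ to be tested. Fitted with no filter, among 717 entries, its log2 fold change was 1.47 (adjusted p = 0.000593). Single libraries also decide its call: it was lost without titled untreated replicate 3 (1.37, adjusted p = 0.0576) and without titled ETBF replicate 3 (1.45, adjusted p = 0.0754). Over all alternatives its adjusted p ran from 0.000593 to 0.0754.

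The abundant pair was highest, within its group, in titled ETBF replicate 1, and both entries passed when it was left out. Without it miR-203a had -0.39 (adjusted p = 0.0177) and miR-205-5p -0.47 (adjusted p = 0.00231). With all 6 libraries kept and no filter, miR-205-5p passed as well, at -0.36 (adjusted p = 0.0321). The adjusted p of miR-203a ran from 0.0177 to 0.497 over the alternatives, and that of miR-205-5p from 0.00231 to 0.305. Scaling mattered as well. An alternative scale used 15 of the 17 tested markers of other tissues. It left out miR-9-5p and miR-9-3p, whose log2 fold changes of 0.34 and 3.40 were the highest of that list. Of the 17, 13 lay below 0, so dividing by such markers shifts fold changes upward. With this scale the median of tested entries moved from -0.03 to 0.18. On it miR-203a had -0.10, miR-205-5p had -0.14 and miR-203b-3p had 1.67.

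**Figure D3:**
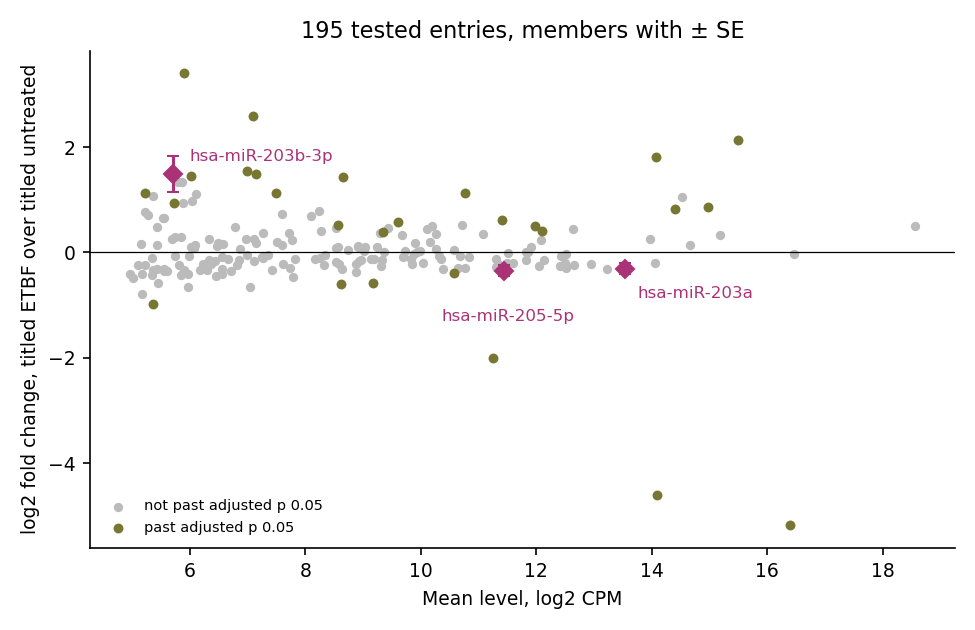
Log2 fold change of the titled ETBF over the titled untreated libraries against mean log2 CPM for the 195 tested entries, with the 3 entries as diamonds ± SE. miR-203b-3p lies at 1.49 among the less counted entries, and miR-203a and miR-205-5p at -0.31 and -0.35 among the well counted ones.

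Ratios taken within a library need no scaling between libraries. For each 1000 counts of miR-203a, the titled untreated libraries held 1.34, 2.88 and 2.03 counts of miR-203b-3p and the titled ETBF libraries 8.90, 5.19 and 7.56. All 3 titled ETBF libraries lay above all 3 titled untreated libraries. Both entries were chosen with this contrast known. After TMM scaling the groups did not overlap for either entry alone, as was so for 39.0% of tested entries. How often ratios of other pairs separate the groups was not computed, so nothing is read from this separation. On the log2 scale, with 0.5 added to each count, the ratio of miR-203b-3p to miR-203a averaged -8.87 ± 0.49 and -7.11 ± 0.38 (SD, n = 3), a difference of 1.76 or 3.39-fold. Counts of miR-203b-3p limit this ratio, and the Wilson 95% intervals of its share in the pair overlapped between titled untreated replicate 2 (0.168% to 0.491%) and titled ETBF replicate 2 (0.289% to 0.923%).

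miR-205-5p and miR-203a, on different chromosomes, kept nearly the same ratio in all 6 libraries. For each 100 counts of miR-203a there were 23.5, 23.9 and 23.6 counts of miR-205-5p in titled untreated replicates 1 to 3, against 24.1, 22.9 and 21.8 in titled ETBF replicates 1 to 3. The groups overlapped, and their mean log2 ratios, with 0.5 added to each count, differed by -0.05. As a share of the summed counts of both, miR-205-5p ran from 17.9% (Wilson 95% interval 16.8% to 19.1%) in titled ETBF replicate 3 to 19.4% (18.2% to 20.6%) in titled ETBF replicate 1. Such likeness was not particular to this pair. In Pearson correlation of log2 CPM, miR-24-3p (r = 0.993) and miR-30a-5p (r = 0.983) were closer to miR-203a than miR-205-5p was (r = 0.979).

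**Figure D4:**
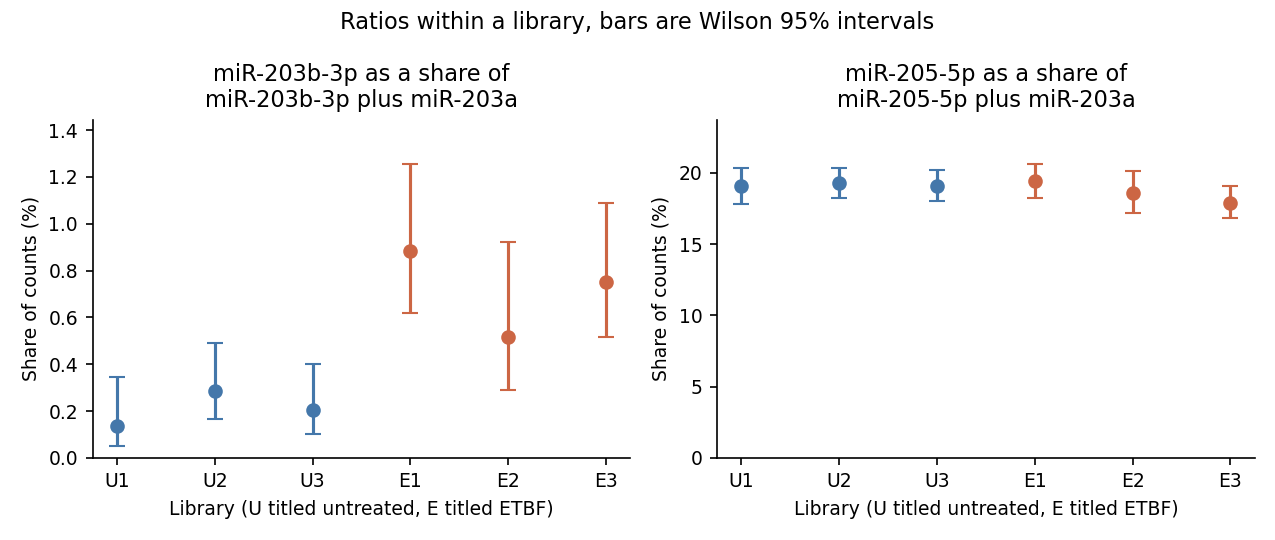
Share of miR-203b-3p in the summed counts of miR-203b-3p and miR-203a (left) and of miR-205-5p in the summed counts of miR-205-5p and miR-203a (right), per library, with Wilson 95% intervals. The left share is 0.134% to 0.287% in the titled untreated and 0.517% to 0.882% in the titled ETBF libraries; the right share stays between 17.9% and 19.4%.

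Shares over all tested entries come first, as background for the lists. In edgeR, 3.59% of tested entries were lower at the adjusted threshold, and at an unadjusted p under 0.05 the shares were 21.0% higher and 12.8% lower. DESeq2, with an adjusted p for 187 entries, gave 11.8% higher and 3.74% lower, and limma-voom 9.74% and 3.08%. A log2 fold change under 0 was found for 51.8% of tested entries.

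Other miRNAs listed for skin and squamous epithelium ranged from 0 counts in every library to levels near that of miR-205-5p. A list of miR-203a, miR-203b, miR-205, miR-944, miR-184, miR-31, miR-24, miR-34a, miR-34c and miR-125b covered 15 entries, of which 13 had a count and 9 were tested. 1 was higher in the titled ETBF libraries, miR-203b-3p, 0 were lower and 8 did not pass in edgeR. At an unadjusted p under 0.05 there were 1 higher and 3 lower, beside 21.0% and 12.8% of all tested entries. These were miR-203b-3p as higher and miR-203a, miR-205-5p and miR-24-3p as lower. All but miR-24-3p are the entries chosen with this contrast known, so nothing is read from these counts. DESeq2 and limma-voom each gave 1 higher and 0 lower. The median log2 fold change of the list, with the 3 chosen entries in it, was -0.22, beside -0.03 over all tested entries.

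miR-944, encoded inside the p63 gene TP63, had 1 count in all, in titled ETBF replicate 1. miR-184, abundant in the corneal epithelium, had 0, 1 and 3 counts in the titled untreated and 3, 13 and 4 in the titled ETBF libraries and was not tested. miR-24-3p averaged 2583 CPM, miR-125b-5p 919.1 CPM, miR-31-5p 427.4 CPM and miR-34a-5p 213.6 CPM, with log2 fold changes of -0.22, -0.22, 0.04 and -0.30. All of these are made in tissues beyond squamous epithelium too, and none passed in edgeR.

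Entries of the miR-200 family ranged from 2 counts in all for miR-200c-5p to levels above that of miR-205-5p. They were listed by family name with both arms included, and not every arm need repress ZEB1 and ZEB2. Of 11 entries of the miR-200 family and miR-205, 8 were tested and 0 passed in edgeR, in DESeq2 or in limma-voom. At an unadjusted p under 0.05 there was 1, miR-205-5p itself, as lower, beside 12.8% of all tested entries. miR-200b-3p averaged 5846 CPM and miR-200a-3p 5512 CPM, with log2 fold changes of -0.03 (SE 0.09) and -0.06 (SE 0.09). The list's median, with miR-205-5p in it, was -0.04, beside -0.35 for miR-205-5p. Tested entries of the list ran from -0.41 (SE 0.24) for miR-200b-5p to 0.33 (SE 0.17) for miR-200a-5p.

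Among gut epithelial miRNAs, the markers of a colon line, miR-192-5p was next below miR-203a in level. miR-194-5p averaged 5876 CPM and miR-375, a miRNA of secretory cells, 392.5 CPM. miR-192-5p and miR-194-5p had log2 fold changes of -0.31 (SE 0.09, edgeR adjusted p = 0.0587) and -0.29 (SE 0.09, adjusted p = 0.0666). Of 7 entries 3 were tested and 1 was lower, miR-375, at -0.61 (SE 0.17, adjusted p = 0.0432). At an unadjusted p under 0.05 all 3 were lower, beside 12.8% of all tested entries. DESeq2 gave 2 lower, beside 3.74% of its entries, and limma-voom 0. The median of these 3 was -0.31. miR-215-5p had 1 to 7 counts in a library.

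Markers of other tissues were measured beside the squamous entries. Their summed level ran from 32384 to 33534 CPM in the titled untreated and from 26526 to 30814 CPM in the titled ETBF libraries. Of 34 entries 27 had a count and 7 were at 0 in every library, among them all entries of the heart miRNAs miR-208a and miR-208b. Of 17 tested, 13 had a log2 fold change under 0, beside 51.8% of all tested entries, and the list's median was -0.15, beside -0.03. In edgeR 1 was higher, miR-9-3p (log2 fold change 3.40, SE 0.62, adjusted p = 0.00705), and 0 were lower. At an unadjusted p under 0.05, 1 was higher and 3 were lower, beside 21.0% and 12.8% of all tested entries. DESeq2 and limma-voom gave 0 lower. The most abundant were miR-1, of muscle, at 17042 CPM and miR-122-5p, of liver, at 5412 CPM, with -0.20 (SE 0.11) and -0.26 (SE 0.10). Whether RNA of other tissues had a part in the levels or differences of miR-203a and miR-205-5p was not tested.

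By Pearson correlation of log2 CPM over the 6 libraries, which fall into 2 groups and share their scaling, the entries most like miR-203a among 194 were miR-24-3p (r = 0.993), miR-30a-5p (r = 0.983) and miR-205-5p (r = 0.979). Those most like miR-205-5p were miR-27b-3p (r = 0.995), miR-30a-5p (r = 0.981) and miR-203a (r = 0.979). For miR-203b-3p they were let-7f-5p (r = 0.967), miR-92b-3p (r = 0.936) and miR-98-5p (r = 0.922). miR-203b-3p had r = -0.665 with miR-203a and r = -0.654 with miR-205-5p.

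**Figure D5:**
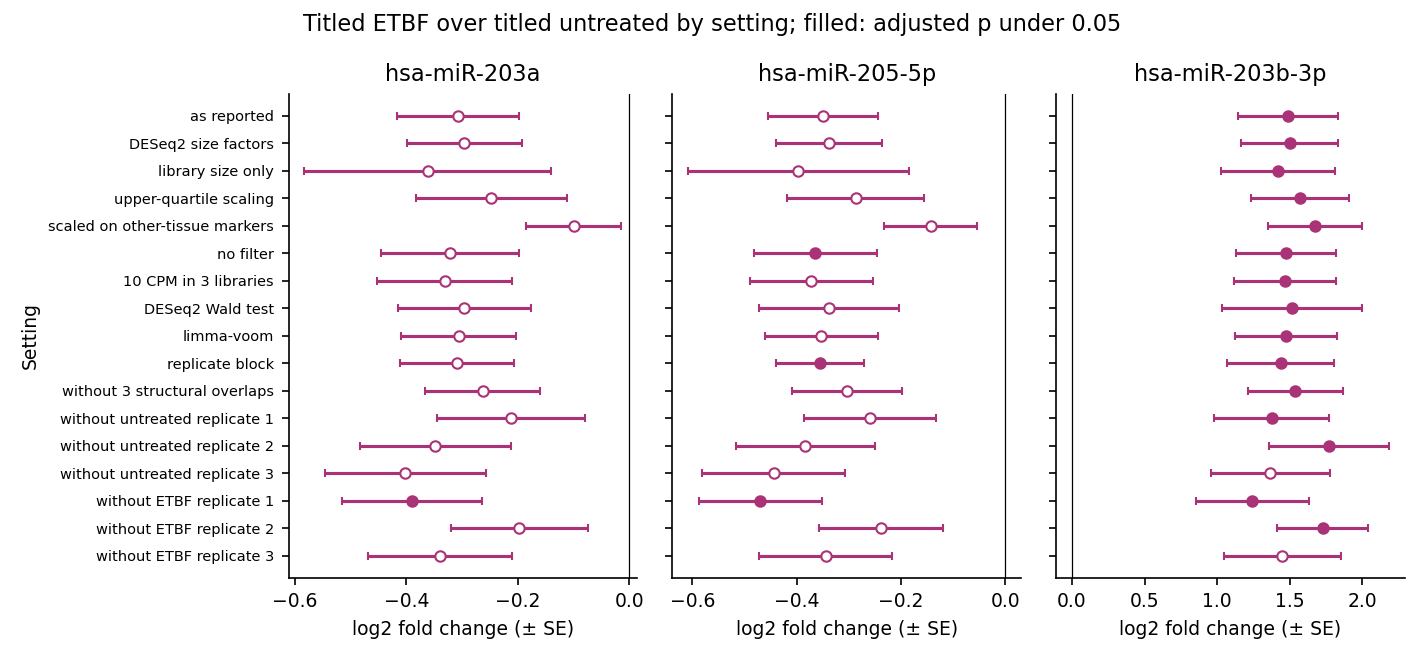
Log2 fold change ± SE of the titled ETBF over the titled untreated libraries for the 3 entries under the reported setting and 16 alternatives, with filled points at an adjusted p under 0.05. All values of miR-203a and miR-205-5p lie below 0 and all of miR-203b-3p above it. miR-203b-3p passes in 15 of 17, miR-205-5p in 3 and miR-203a in 1. All settings draw on the same libraries, and under the reported filter miR-203b-3p was tested only through the titled ETBF libraries.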

How the data were processed

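The authors deposited 1 table per library with whole-number counts per mature miRNA entry, not normalised. The submitters' processing notes name Trimmomatic, FastQC, featureCounts and build GRCh37.p5. What is not given in the sources used here includes tool versions, the aligner, the annotation of miRNAs and the settings for strand and for reads with several positions. Per the labels' protocols, exosomes were collected by centrifugation and 100 ng of Trizol-extracted total RNA went into each Illumina library.

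Groups follow the titles. Members and lists were chosen with earlier results of these data known. Entries were kept by filterByExpr (minimum count 10), leaving 195, scaled by TMM and tested with edgeR 4.0.16 in R 4.3.3 (quasi-likelihood F-test). SE was taken as the size of the fold change (log2) divided by the root of F. CPM is counts over the TMM-scaled size of tested entries. Alternatives were other scalings, filters, DESeq2 1.42.0, limma 3.58.1, the replicate number as a block, 3 entries overlapping structural RNAs left out, and each library left out.

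Named entries are the 3 members, entries named miR-203 or miR-205 or sharing a member's seed, the 3 most correlated with each member, the nearest in level, and, from each list, the 2 with the highest level and those past the threshold. miR-944, miR-184, miR-125b-5p, miR-31-5p, miR-31-3p, miR-34a-5p, miR-34c-5p, miR-200a-5p, miR-200b-5p, miR-200c-5p and miR-215-5p, and the pairs on opposite strands, were named after their values were seen. RefSeq's table of mature miRNAs matched 2261 of the 2575 entries.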

Additional observations from a re-analysis of the deposited data

How the results depend on the processing

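miR-203b-3p stayed above 0 and miR-203a and miR-205-5p below 0 in all 17 settings, the reported one included. These settings draw on the same libraries, so their likeness is no further support. miR-203b-3p ranged from 1.24 to 1.77 when single libraries were left out, miR-203a from -0.40 to -0.20 and miR-205-5p from -0.47 to -0.24. miR-205-5p also passed with no filter (-0.36, adjusted p = 0.0321) and with the replicate block (-0.36, adjusted p = 0.0200). The block gave miR-203a -0.31 (adjusted p = 0.0548) and miR-203b-3p 1.44 (adjusted p = 0.0278), and 38 calls in all, of which 26 were among the 28. Same-numbered libraries of the 2 groups had correlated deviations of 0.18, 0.10 and 0.05, so the numbers were not taken to pair them; each titled untreated library correlated best with its own number. The difference in the log2 ratio of miR-203b-3p to miR-203a was 1.83 and 1.70 with 0 and 1 added to the counts, and 1.51 to 2.00 with single libraries left out. By Spearman's rho the likeness of miR-205-5p to miR-203a was 0.94.

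The 28 calls became 51 with no filter and 49 when scaled on markers of other tissues, and 17 to 59 with single libraries left out: leaving out titled untreated replicate 3 gave 17, titled ETBF replicate 3 also 17, and titled ETBF replicate 1 gave 59. The share of higher calls, 75%, was 85.7% with upper-quartile scaling, 91.8% when scaled on those markers, 88.2% without miR-7641, miR-6087 and miR-1246 and 64.4% without titled ETBF replicate 1. The cause was not tested. Depth limits miR-203b-3p most, with 4 to 30 counts in a library.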
